A study of Rattus norvegicus with 9 samples.

Results

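The let-7 and miR-98 family was followed through small RNA libraries of cultured rat cartilage progenitor cells. The family was taken as the 5p rows rno-let-7a-5p, rno-let-7b-5p, rno-let-7c-5p, rno-let-7d-5p, rno-let-7e-5p, rno-let-7f-5p, rno-let-7g-5p, rno-let-7i-5p and rno-miR-98-5p, chosen by name, 9 of the 726 miRNA rows in the deposited table. The cells were wild-type (WT) primary cultures from condylar cartilage, the cartilage of the jaw joint. The P9 group was grown in vitro to passage 9 and stands for replicative senescence in the submitters' design. The FFSS group was passage 3 cells under flow fluid shear stress, which stands for degeneration under load. The P3 group was passage 3 cells and served as the control of both. Each group had 3 libraries. Strain, age, sex, and the strength and duration of the shear stress are not given in the labels, nor is the source of the replicates, which could be cultures, animals or repeat libraries. The spread behind all p-values may therefore be technical.

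let-7 miRNAs are short RNAs that lower the output of target mRNAs, chiefly through pairing of the seed, bases 2 to 8, with sites in those mRNAs. They were first described as timing genes of worm development and are abundant in most differentiated mammalian cells, while the RNA-binding protein LIN28 holds back their maturation in embryonic stem cells. Known targets in mammals include the growth regulators Hmga2, Myc and the Ras genes, and in mice let-7 has a role in the growth of cartilage cells. Each hairpin precursor has a 5p arm, the main product for this family, and a 3p arm, usually degraded.

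All 9 members matched a mature sequence in RefSeq (rat, build GRCr8), and the sequences are shown because the members share a seed yet differ elsewhere. The seed is in capitals.
let-7a-5p: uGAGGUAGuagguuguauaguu
let-7b-5p: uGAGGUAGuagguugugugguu
let-7c-5p: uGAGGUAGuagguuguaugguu
let-7d-5p: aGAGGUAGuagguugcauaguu
let-7e-5p: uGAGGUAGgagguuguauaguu
let-7f-5p: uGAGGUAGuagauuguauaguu
let-7g-5p: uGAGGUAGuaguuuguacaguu
let-7i-5p: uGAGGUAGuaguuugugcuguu
miR-98-5p: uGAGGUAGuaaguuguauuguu

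Every member is 22 bases long and carries the seed GAGGUAG, and no other mature name in the RefSeq table does. Relative to let-7a-5p, with positions counted from 1 at the 5′ end and the base of let-7a-5p written first, let-7c-5p differs by A19G, let-7e-5p by U9G and let-7f-5p by G12A. let-7b-5p differs from let-7a-5p by A17G and A19G, and from let-7c-5p by 1 base. let-7d-5p carries U1A and U16C, let-7g-5p G12U and U18C, and miR-98-5p G11A and A19U. let-7i-5p is farthest from let-7a-5p, with G12U, A17G, U18C and A19U. Of the 36 pairs of members, 4 lie 1 base apart, and the widest gap is 6 bases, between let-7d-5p and let-7i-5p. The mismatch setting of the counting is not given in the labels, and the split of reads between members 1 base apart is uncertain.

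The 9 members come from 12 hairpins in RefSeq, and several of these lie close together. Within 100 kb of each other lie a hairpin of let-7a, a hairpin of let-7f and the let-7d hairpin. The let-7b hairpin neighbours a hairpin of let-7c, and the other let-7c hairpin lies with miR-99a and miR-125b-2. The other let-7a hairpin lies with miR-100 and miR-125b-1, and let-7e with miR-99b and miR-125a. miR-98 and a hairpin of let-7f lie within the span of Huwe1, which encodes a ubiquitin ligase, and let-7g within that of Wdr82. let-7g and let-7i have no other miRNA gene in that window.

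A further 4 rows, miR-3596a to miR-3596d, repeat reads of the family and were not counted in it. The reverse complement of miR-3596a, for example, is the whole of let-7a-5p.
miR-3596a: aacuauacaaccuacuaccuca
The rows miR-3596a, miR-3596b, miR-3596c and miR-3596d held between 95.9% and 100% of the reads of let-7a-5p, let-7d-5p, let-7e-5p and let-7f-5p in every library. They made up 4.11% to 7.07% of a library's reads, so every level relative to the table's total is lowered by that repetition.

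Library totals were 7614513 to 8177357 reads in P9, 2878910 to 7082142 in FFSS and 7522702 to 8862560 in P3. A member had between 1856 and 363120 reads in a library, so counting error was at most 2.32% of a value. P9 replicate 3 stood apart: across rows, its log2(CPM + 1) correlated at 0.963 and 0.970 with the other P9 libraries and at 0.976 with P3 replicate 2, where CPM is the read count scaled to the same library total of 1000000 reads. FFSS replicate 1, the shallowest library, correlated at 0.967 and 0.977 with the other FFSS libraries. The 0.967 was with FFSS replicate 2, which correlated at 0.972 to 0.975 with the P3 libraries. The 4 cartilage markers, both arms of miR-140 and of miR-455, were read in all groups and summed to 2590.0 to 3847 CPM in P9, 6077 to 7202 CPM in FFSS and 4150.4 to 7370.1 CPM in P3. The 7 blood markers summed to 69.6 to 308 CPM in P9, 167 to 592 CPM in FFSS and 75.8 to 157 CPM in P3. The 6 muscle markers summed to 151 to 534 CPM in P9, 189 to 538 CPM in FFSS and 141 to 158 CPM in P3. Of 12 embryonic stem cell miRNAs, 4 had rows, which summed to 0 to 5.85 CPM in P9, 5.51 to 12.8 CPM in FFSS and 4.63 to 5.23 CPM in P3. Markers of epithelium summed to 25.2 to 77.7 CPM in P9, 90.4 to 226 CPM in FFSS and 81.1 to 102 CPM in P3. Those of endothelium summed to 275 to 491 CPM in P9, 556 to 695 CPM in FFSS and 386 to 406 CPM in P3. miR-122-5p of liver had 3.43 to 22.9 CPM in P9, 15.5 to 51.4 CPM in FFSS and 9.87 to 11.7 CPM in P3. Markers of the nervous system summed to 1107 to 1977 CPM in P9, 1376 to 2223 CPM in FFSS and 1114 to 1782 CPM in P3. As sums, the blood, muscle, endothelium, liver and embryonic stem cell lists lay wholly higher in FFSS than in P3. The cartilage and epithelium sums lay wholly lower in P9 than in P3. Single markers did not all follow their sums. miR-455-5p of cartilage overlapped, at 241 to 490 CPM in P9 and 363 to 532 CPM in P3. miR-200b-3p of epithelium was higher in P9, at 5.91 to 8.32 CPM, than in P3, at 3.27 to 4.52 CPM. miR-451-5p of blood and miR-126a-5p of endothelium overlapped between FFSS and P3. The part of these markers in the results was not tested.

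The family as a whole took a smaller part of the reads at passage 9. It held 11.1%, 11.0% and 11.5% of the reads in the P9 libraries, 17.5%, 14.5% and 12.9% in the FFSS libraries, and 16.3%, 15.7% and 15.2% in the P3 libraries. Every P9 library lay below every FFSS and every P3 library, while FFSS and P3 overlapped. The mean was 11.2% ± 0.288 in P9, 15.0% ± 2.31 in FFSS and 15.7% ± 0.574 in P3 (SD, n = 3 each). On the log2 scale the total was -0.49 for P9 against P3 and -0.42 for P9 against FFSS, with -0.071 for FFSS against P3. The total is described without a test and without the scaling factors (TMM) of the tests below. These were 1.18 for FFSS replicate 3, the lowest of its group, and 0.897 for P9 replicate 3, the highest of its group. P9 and FFSS need not stay separate under that scaling. In bulk libraries, fewer cells with a miRNA and less of it per cell cannot be told apart.

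This total is a part of a whole, and the shares of other abundant miRNAs differed between the groups too. miR-21-5p, a miRNA abundant in fibroblast-like cells, held 26.0% ± 6.76 of the reads in P9, 10.7% ± 2.90 in FFSS and 18.9% ± 3.23 in P3. miR-143-3p, known from smooth muscle and fibroblasts, held 15.4% ± 2.23 in P9, 5.96% ± 1.57 in FFSS and 6.21% ± 0.607 in P3 (SD, n = 3 each). Among the 10 rows with the most reads, 7 lay outside the family, miR-3596d being among them, and together they held 66.8% ± 1.40 of the reads in P9, 57.8% ± 0.913 in FFSS and 60.04% ± 3.09 in P3. With these 7 rows left out of the library, the family held 31.9%, 34.4% and 34.9% in P9, 42.4%, 33.9% and 30.3% in FFSS, and 37.5%, 41.6% and 39.3% in P3. P9 then still lay below P3, by -0.23 on the log2 scale, but P9 and FFSS overlapped, at -0.075.

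**Figure D1:**
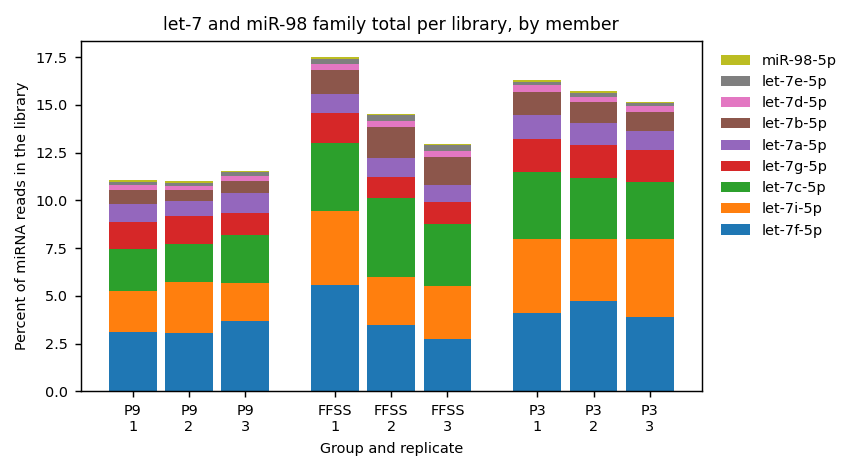
Family total in each library, in percent of the library's miRNA reads on the vertical axis, stacked by member, for the 3 libraries each of P9, FFSS and P3. The P9 columns are the lowest, at 11.0% to 11.5% of the reads, and the FFSS columns range from 12.9% to 17.5%.

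Within the family, let-7f-5p, let-7i-5p, let-7c-5p and let-7g-5p held 76.8% to 83.4% of the reads in every library. let-7f-5p had the highest mean in each group, at 32789 ± 3434 CPM in P9, 39266 ± 14879 CPM in FFSS and 42393 ± 4533 CPM in P3 (SD, n = 3 each). Its P9 libraries lay apart from let-7i-5p, the next member, whereas in FFSS it overlapped let-7c-5p and in P3 let-7i-5p. let-7i-5p and let-7c-5p overlapped in all 3 groups. let-7b-5p ranked below let-7a-5p in P9, with no overlap, and above let-7g-5p and let-7a-5p in FFSS, where it overlapped let-7g-5p. let-7b-5p and let-7a-5p overlapped in P3. let-7d-5p, let-7e-5p and miR-98-5p were the lowest members in each group, and only let-7d-5p and let-7e-5p overlapped, in FFSS. Even miR-98-5p, the lowest, ranked 55 among all rows in P9, 72 in FFSS and 53 in P3.

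**Figure D2:**
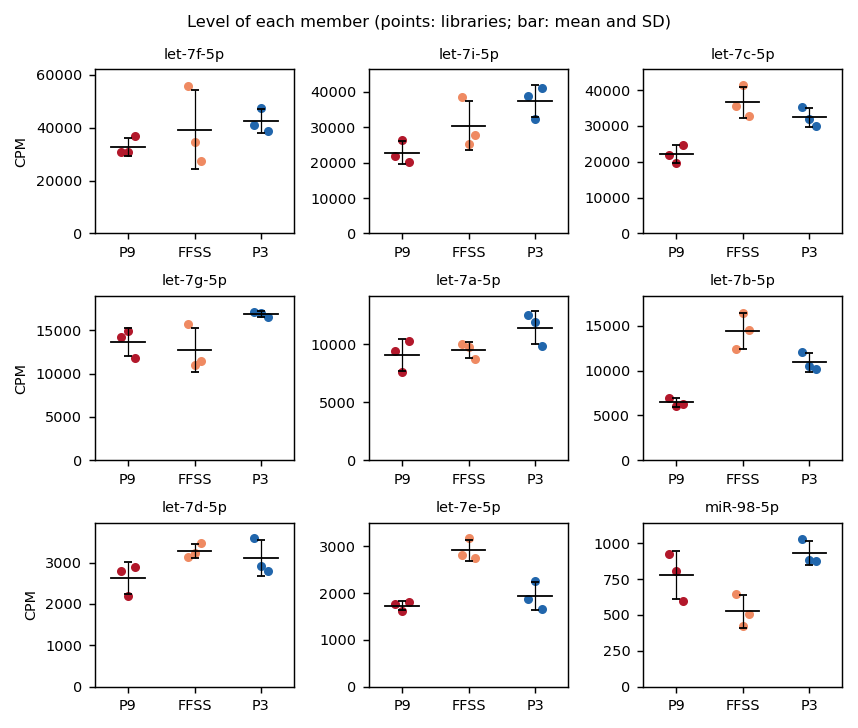
Level of each member in CPM (vertical axes, each from 0) in P9, FFSS and P3. Points are libraries and bars the mean with SD over 3 libraries. For let-7b-5p the P9 points lie lowest and the FFSS points highest, while for miR-98-5p the FFSS points lie below the P3 points and overlap those of P9.

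The first comparison, P9 against P3, addresses replicative senescence. All 9 members had a negative log2 fold change, between -0.70 for let-7b-5p and -0.10 for let-7e-5p, with a median of -0.27 against 0.062 over all 439 rows tested. The 9 values stayed negative under each of the 4 other scalings, though let-7e-5p turned positive in 2 of 22 alternatives. None passed the edgeR quasi-likelihood test at a Benjamini-Hochberg adjusted p under 0.05, where 7.29% of all rows were called. At an unadjusted p under 0.05 stood 2 members, let-7b-5p and let-7i-5p, beside 76 of the 439 rows. DESeq2 called 1, let-7b-5p, while limma-voom called 0. The P9 libraries lay wholly below the P3 libraries for 5 members, let-7b-5p, let-7c-5p, let-7f-5p, let-7g-5p and let-7i-5p, a position held by 14.1% of all rows. Here and below, overlap of levels was judged on CPM, without the TMM factors that scale the test. These were 0.913 and 0.897 for P9 replicates 2 and 3 and 1.17 for P3 replicate 1. Dividing by them raises those P9 levels and lowers that P3 level, so a separation in CPM need not hold under the test's scaling. The members are read from the same libraries and share their total, so they are not independent.

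let-7b-5p, which in mice is known to repress Hmga2 in ageing neural stem cells, had 6974, 6078 and 6317 CPM in P9, against 12084, 10486 and 10184.5 CPM in P3. The P9 libraries were all below the P3 libraries, and the value was -0.70 (SE 0.21, adjusted p = 0.0705). It passed in 4 of 22 alternatives, among them the fit without FFSS replicate 1 (adjusted p = 0.0449). let-7i-5p had 21782, 26491 and 20140.4 CPM in P9, against 38744, 32397 and 40972 CPM in P3. Its groups did not overlap either, and the value was -0.65 (SE 0.26, adjusted p = 0.211). let-7c-5p had 21971, 19669 and 24746 CPM in P9, against 35264, 31883 and 30066 CPM in P3 (-0.48, adjusted p = 0.312). For let-7f-5p the 3 P9 libraries had 30866, 30747 and 36753 CPM, against 40898, 47485 and 38796 CPM in P3 (-0.31, adjusted p = 0.699). let-7g-5p, at 14173, 14917 and 11823 CPM in P9 and 17127, 16990.4 and 16501 CPM in P3, had a value of -0.25 (adjusted p = 0.678). let-7a-5p, let-7d-5p, let-7e-5p and miR-98-5p overlapped between P9 and P3, with values of -0.27, -0.17, -0.10 and -0.21. Without P9 replicate 3 these were -0.42, -0.30, -0.19 and -0.090.

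Shear-stressed cells were compared with the same passage 3 control to describe degeneration under load. Here the members' values had both signs, 5 negative and 4 positive (6 and 3 with TMM computed without the 10 most abundant miRNAs), with a median of -0.13 against 0.024 over all rows tested. miR-98-5p fell, the only member called lower by edgeR, and 0 were called higher. Over all rows 20.5% were called, 6.83% higher and 13.7% lower, so 1 of 9 members was no more than the background. let-7e-5p also had an unadjusted p under 0.05, as had 159 of the 439 rows. The FFSS libraries lay wholly above the P3 libraries for let-7b-5p and let-7e-5p, as for 18.9% of all rows, and wholly below them for let-7g-5p and miR-98-5p, as for 22.6%.

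miR-98-5p, the member with a name of its own, had 645, 421 and 507 CPM in FFSS, against 1028, 884 and 878 CPM in P3. All FFSS libraries were below all P3 libraries, and the log2 fold change was -0.85 (SE 0.27, 95% interval -1.44 to -0.26, adjusted p = 0.0441). The value stayed negative in 22 of 22 alternatives, but the call held in 9 of them, with adjusted p between 0.0122 and 0.140. It was lost without any P3 library (adjusted p up to 0.0980), without P9 replicate 2 (0.0618) and without FFSS replicate 2 or 3 (0.101 and 0.140), and under 3 other scalings. Without FFSS replicate 1 it was -1.21 (adjusted p = 0.0122), and without P9 replicate 3 -0.90 (adjusted p = 0.0175).

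let-7e-5p had 2815, 3170.4 and 2761 CPM in FFSS, against 1871, 2254 and 1663 CPM in P3. The FFSS libraries were all higher, yet the value of 0.55 did not pass (SE 0.25, adjusted p = 0.129), nor did it in any of 22 alternatives. let-7b-5p had 12424, 16428 and 14560 CPM in FFSS, against 12084, 10486 and 10184.5 CPM in P3, with a value of 0.37 (SE 0.21, adjusted p = 0.221). FFSS replicate 1 was only just above the highest P3 library. let-7g-5p had 15674, 11040.0 and 11493 CPM in FFSS, against 17127, 16990.4 and 16501 CPM in P3 (-0.43, SE 0.25, adjusted p = 0.221). Without FFSS replicate 1, let-7g-5p was at -0.79 (adjusted p = 0.0253) and let-7i-5p at -0.71 (adjusted p = 0.0459), and the members called numbered 3 in place of 1. let-7f-5p varied most, with 55922, 34588 and 27288 CPM in FFSS, against 40898, 47485 and 38796 CPM in P3. FFSS replicate 1 was above every P3 library and the other FFSS libraries below them, and the value of -0.13 (adjusted p = 0.803) became -0.66 without it (adjusted p = 0.110). let-7a-5p, let-7c-5p, let-7d-5p and let-7i-5p overlapped, with values of -0.29, 0.15, 0.050 and -0.32. Without FFSS replicate 1, let-7a-5p was at -0.50 and let-7c-5p at 0.0037, and let-7d-5p turned to -0.088. let-7d-5p was negative in 10 of 22 alternatives, among them the fit without P9 replicate 3 (-0.011).

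**Figure D3:**
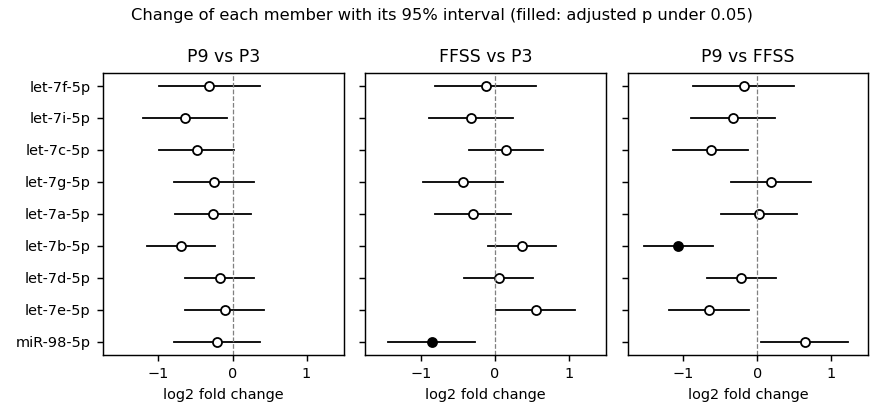
Log2 fold change of each member (horizontal axes) with its 95% interval in each comparison, the panels running from P9 against P3 on the left to P9 against FFSS on the right. Filled points passed the edgeR test at an adjusted p under 0.05: miR-98-5p at -0.85 in FFSS against P3 and let-7b-5p at -1.07 in P9 against FFSS.

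Passage 9 and shear-stressed cells were also compared directly. let-7b-5p was lower in P9, at 6974, 6078 and 6317 CPM, against 12424, 16428 and 14560 CPM in FFSS. The groups did not overlap, and the log2 fold change was -1.07 (SE 0.21, 95% interval -1.53 to -0.60, adjusted p = 0.00273). This was the only call on a member, where 34.4% of all rows were called and 11.8% were called lower, so 1 of 9 was again no more than the background. Unlike the other calls on the family, it held in 22 of 22 alternatives, with values between -1.18 and -0.87 and adjusted p between 8.05e-05 and 0.0192. It was -1.04 without P9 replicate 3 and -0.99 without FFSS replicate 1. Both comparisons with P3 share their controls, and let-7b-5p stood at -0.70 in P9 and 0.37 in FFSS there, neither past the test.

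At an unadjusted p under 0.05 stood 4 members in this comparison, beside 202 of the 439 rows. Of the members' changes 6 were negative and 3 positive (7 and 2 with DESeq2 size factors, upper-quartile factors or library size alone), with a median of -0.22 against 0.024 over all rows. The P9 libraries lay wholly below the FFSS libraries for let-7b-5p, let-7c-5p, let-7d-5p and let-7e-5p, as for 19.8% of all rows. let-7c-5p, 1 base from let-7b-5p, had 21971, 19669 and 24746 CPM in P9, against 35676, 41317 and 32713 CPM in FFSS. Its value of -0.63 (SE 0.23, adjusted p = 0.0518) lay just short of the threshold and passed in 10 of 22 alternatives. let-7e-5p, with 1762, 1623 and 1812 CPM in P9 and 2815, 3170.4 and 2761 CPM in FFSS, was similar, at -0.65 (SE 0.25, adjusted p = 0.0553), and passed in 7 of 22. miR-98-5p had a value of the opposite sign, with 926, 805 and 596 CPM in P9, against 645, 421 and 507 CPM in FFSS. Its groups overlapped, at 0.64 (SE 0.27, adjusted p = 0.0825). Without FFSS replicate 1 it passed at 1.02 (adjusted p = 0.00893), and without P9 replicate 3 it passed too (adjusted p = 0.0317). Without P9 replicate 3 the members called numbered 4, namely let-7b-5p, let-7c-5p, let-7e-5p and miR-98-5p.

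Shares within the family do not depend on scaling between libraries and are described without a test. let-7b-5p made up 6.30%, 5.52% and 5.48% of the family in P9, 7.11%, 11.3% and 11.3% in FFSS, and 7.41%, 6.67% and 6.71% in P3. P9 lay below both other groups, and FFSS overlapped P3 through FFSS replicate 1. let-7e-5p made up 1.59%, 1.47% and 1.57% in P9, 1.61%, 2.18% and 2.14% in FFSS, and 1.15%, 1.43% and 1.10% in P3. The groups of let-7e-5p did not overlap in any of the 3 comparisons, FFSS being highest and P3 lowest. miR-98-5p made up 0.837%, 0.731% and 0.517% in P9, 0.369%, 0.290% and 0.392% in FFSS, and 0.630%, 0.562% and 0.579% in P3. FFSS lay below both other groups, which overlapped. let-7g-5p also lay lowest in FFSS, with P9 and P3 overlapping, at 12.8%, 13.5% and 10.2% in P9, 8.97%, 7.60% and 8.89% in FFSS, and 10.5%, 10.8% and 10.9% in P3. let-7a-5p, at 8.10% ± 1.06 in P9 and 6.42% ± 0.584 in FFSS (SD, n = 3 each), was separate in that comparison alone. let-7c-5p, let-7d-5p, let-7f-5p and let-7i-5p overlapped in all 3 comparisons.

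**Figure D4:**
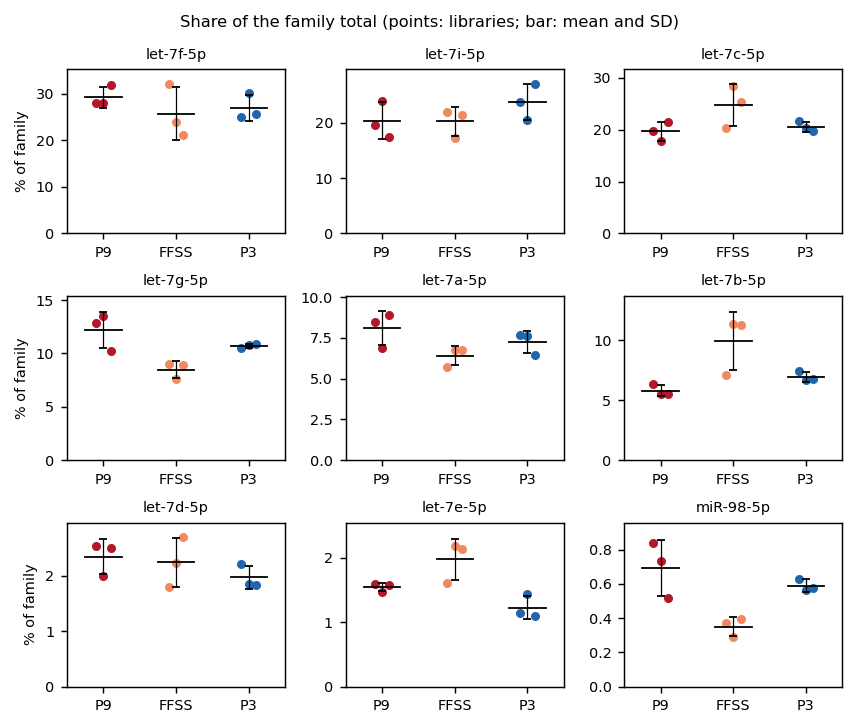
Share of each member in the family total, in percent (vertical axes, each from 0), in P9, FFSS and P3. Points are libraries and bars the mean with SD over 3 libraries. The share of let-7b-5p is lowest in P9, and the shares of let-7g-5p and miR-98-5p are lowest in FFSS.

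The 3p arms of the same hairpins gave a second readout. Of 11 such rows 9 passed the filter on low counts, and 7 had a mean of at least 10 counts. These 7 were let-7a-1-3p, let-7b-3p, let-7c-1-3p, let-7d-3p, let-7e-3p, let-7f-1-3p and let-7i-3p. None passed in P9 against P3 or in FFSS against P3, with 0 at an unadjusted p under 0.05 in each. let-7b-3p and let-7d-3p were lower in P9 than in FFSS, and their sequences are shown with bases 2 to 8 in capitals.
let-7b-3p: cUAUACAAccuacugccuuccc
let-7d-3p: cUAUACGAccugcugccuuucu
let-7b-3p had 13.9, 11.7 and 16.4 CPM in P9, against 37.2, 18.8 and 43.1 CPM in FFSS, a log2 fold change of -1.10 (SE 0.36, adjusted p = 0.0326). let-7d-3p had 268, 222 and 264 CPM in P9, against 478, 361 and 660 CPM in FFSS (-0.87, SE 0.27, adjusted p = 0.0282). In both the P9 libraries were all below the FFSS libraries. Against P3, let-7b-3p stood at -0.45 in P9 and 0.66 in FFSS, and let-7d-3p at -0.32 and 0.55, none past the test. These were 2 of the 9 arms that passed the filter, where 34.4% of all rows were called and 11.8% called lower, and the other comparisons, with 0 of 9, had 7.29% and 20.5% of all rows called. Their calls held in 11 and 12 of 22 alternatives. The call on let-7b-3p was lost without P9 replicate 1 or 2, FFSS replicate 1 or 3, or any of the P3 libraries (adjusted p up to 0.163), and that on let-7d-3p without the same libraries (up to 0.156). The reads of let-7a-1-3p cannot be told from those of let-7c-2-3p, which has the same sequence.

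The ratio of the 5p to the 3p arm of a hairpin was then compared over 89 hairpins with limma. The 3p rows of let-7a, let-7c and let-7f are numbered by hairpin and did not pair by name with a 5p row. The ratio could be read for let-7b, let-7d, let-7e and let-7i. None of the 4 passed in any comparison, where 0.00% of all hairpins were called for P9 against P3, 4.49% for shear stress against P3 and 7.87% between P9 and FFSS. At an unadjusted p under 0.05 stood 0, 0 and 1 of the 4 in these comparisons. For let-7b the mean log2 ratio was 8.85 in P9 and 8.85 in FFSS, a difference of 0.0067 with a 95% interval from -0.90 to 0.91. let-7e had a log2 ratio of 6.40, 6.72 and 6.63 in P9, against 8.10, 7.89 and 7.32 in FFSS. The let-7e groups did not overlap, and the difference of -1.19 (SE 0.36, adjusted p = 0.0534) lay just short of the threshold. It passed without P9 replicate 3, at -1.21 (adjusted p = 0.0224). let-7d, whose 3p arm is the most abundant of the family, had mean log2 ratios of 3.38 in P9, 2.76 in FFSS and 3.24 in P3.

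**Figure D5:**
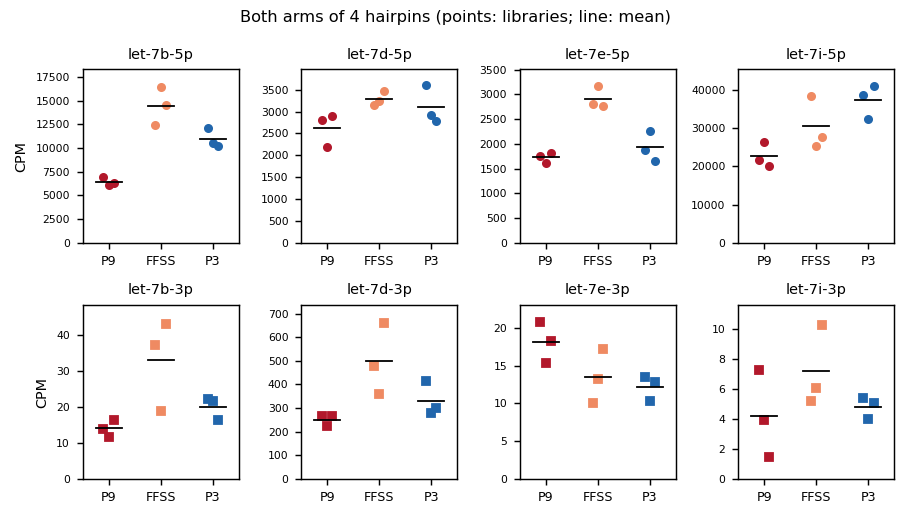
CPM of the 5p arm (upper row, circles) and the 3p arm (lower row, squares) of the let-7b, let-7d, let-7e and let-7i hairpins in P9, FFSS and P3, each axis from 0. Points are libraries and lines means over 3 libraries. By mean, both arms of let-7b are lowest in P9, though the P9 and P3 points of its 3p arm overlap. For let-7e the mean of the 5p arm is highest in FFSS and that of the 3p arm in P9.

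The miR-99, miR-100 and miR-125 rows, whose hairpins lie beside let-7 hairpins, were read as their neighbours. Of these 11 rows 0 passed in P9 against P3, with 0 at an unadjusted p under 0.05, 1 in FFSS against P3 and 2 in P9 against FFSS. The share of all rows called was 7.29%, 20.5% and 34.4% in this order. In FFSS against P3 miR-125a-3p, from the let-7e cluster, rose to 55.2, 55.1 and 81.6 CPM in FFSS, against 33.1, 32.04 and 25.05 CPM in P3 (1.03, SE 0.30, adjusted p = 0.0350). miR-125a-3p was lower in P9 than in FFSS (-0.95, SE 0.30, adjusted p = 0.0292). Its 31.5, 23.5 and 36.2 CPM in P9 overlapped the P3 values, with 0.083 for P9 against P3. miR-125b-2-3p of a let-7c cluster was also lower in P9 than in FFSS, with 170, 133 and 135 CPM in P9 and 229, 296 and 312 CPM in FFSS (-0.84, SE 0.27, adjusted p = 0.0302). Against P3 it stood at -0.36 in P9 and 0.48 in FFSS, neither past the test. The calls on miR-125a-3p held in 12 and 10 of 22 alternatives and that on miR-125b-2-3p in 12. miR-125a-3p lost both calls whenever a library other than P9 replicate 3 was left out (adjusted p up to 0.182). miR-125b-2-3p lost its call without P9 replicate 1 or 2, FFSS replicate 2 or 3, or any of the P3 libraries (adjusted p up to 0.154). miR-99a-5p had 23009, 27543 and 118982 CPM in P9, against 45587, 66342 and 35842 CPM in P3. P9 replicate 3 was far above the other P9 libraries, and without it the value of 0.30 (adjusted p = 0.844) became -0.96 (adjusted p = 0.0541). Without that library miR-99a-5p was also called lower in P9 than in FFSS, at -1.55 (adjusted p = 0.00107). miR-99b-5p, of the let-7e cluster, was then called higher in FFSS than in P3 (0.64, adjusted p = 0.0256) and lower in P9 than in FFSS (-0.64, adjusted p = 0.0343). let-7c-5p, of which a hairpin lies beside miR-99a and another beside let-7b, had 21971, 19669 and 24746 CPM in P9. Its P9 replicate 3 was not far above the others. Without that library let-7c-5p was also called lower in P9 than in FFSS (-0.71, adjusted p = 0.0307).

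The rows most like the family total over the 9 libraries were sought among 158 other rows with a mean of at least 50 CPM. By Pearson's r of log2 values these were miR-3557-5p and miR-378a-3p, whose counts nearly coincide (0.825), miR-26a-5p (0.807), miR-146a-5p (0.776) and miR-195-5p (0.771). All values share the library totals, and the correlations only describe these libraries. miR-26a-5p had 14783, 13570.2 and 14325 CPM in P9, 22804, 27625 and 24414 CPM in FFSS, and 25202, 21581 and 22324 CPM in P3. Its P9 libraries, like those of the family total, lay below all others. miR-195-5p had 17.6, 12.7 and 12.0 CPM in P9, 151, 213 and 150.1 CPM in FFSS, and 88.8, 52.8 and 120.1 CPM in P3. miR-146a-5p ranged from 15.5 to 47.6 CPM in P9, from 650.2 to 17002 CPM in FFSS and from 392 to 401 CPM in P3.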

How the data were processed

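Small RNA was sequenced from total RNA after adaptor ligation and selection of inserts of 18 to 40 bp, per the labels' protocols. Per the file headers, the deposited table pairs a count and a TPM value for 9 libraries and 726 miRNA rows. The TPM equalled the count scaled to a library total of 1000000 reads (CPM) within 4.85e-05, so the authors applied no length term. The submitters' processing notes name Bowtie and Rnor_6.0, and not the counter or its mismatch setting. Of the rows, 91 have no annotated rat name.

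The counts were tested with edgeR 4.0.16 in R 4.3.3: filterByExpr kept 439 rows, TMM scaled the libraries, and the robust quasi-likelihood test was fitted to the 9 libraries together, with a spread common to the groups. Benjamini-Hochberg adjustment ran over the 439 rows, with calls under 0.05. Ratios of arms, log2 of 5p over 3p counts with 0.5 added, were compared with limma 3.58.1. They covered the hairpins whose 5p and 3p rows pair by name and both averaged 20 counts or more. Both steps were tested on simulated data. Sequences and neighbouring genes come from RefSeq GRCr8, another build than the files', so no coordinates are given; 578 of 726 rows matched a mature sequence.

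Named are the 9 members, the miR-3596 rows, 3p arms with a mean of at least 10 counts, 11 cluster neighbours, the 5 rows most like the family total, and the rows with the most reads. Members and lists were chosen with earlier results of these data known. Alternatives were other scalings and filters, limma-voom, DESeq2 1.42.0, limma-trend on log2 TPM with 1 or 10 added, fits restricted to 2 groups, a block by replicate number, removal of the miR-3596 rows and leaving out each library. Intervals come from the main fits and cover the spread between libraries as well as counting error. The source of that spread is not given in the labels.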

Additional observations from a re-analysis of the deposited data

Results flagged for a closer look

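The change of let-7b-5p at passage 9 differed from its change under shear stress, both against P3, by -1.07 on the log2 scale. This is the direct test of P9 against FFSS. The same test separated the changes of let-7b-3p, by -1.10, and of let-7d-3p, by -0.87.

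The rows miR-3596a, miR-3596b, miR-3596c and miR-3596d lie outside the family count yet held reads, with means of 10019, 3005, 2187 and 37142 CPM over the 9 libraries. Each held at least 95.9% as many reads as the member it complements, miR-3596d against let-7f-5p being the lowest.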

How the results depend on the processing

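Without any of the alternatives, edgeR called 0 members in P9 against P3, 1 in FFSS against P3 and 1 in P9 against FFSS. For P9 against P3 the count was 1, let-7b-5p, with upper-quartile factors, with DESeq2, and when just the 2 groups were fitted, and 0 to 1 when a library was left out. For FFSS against P3 it was 0 with upper-quartile factors, DESeq2 size factors, library size alone, a mean of at least 50 counts, log2(TPM + 1) and log2(TPM + 10), and 0 to 3 when a library was left out. For P9 against FFSS it was 3 with upper-quartile factors, DESeq2 size factors, library size alone, the DESeq2 test, log2(TPM + 1) and log2(TPM + 10), 2 with a mean of at least 50 counts and with limma-voom, and 1 to 4 when a library was left out. The replicate block gave 0, 0 and 1 members in these comparisons, so that it ended the call on miR-98-5p (adjusted p = 0.0675). It also ended those on let-7b-3p (0.0577), let-7d-3p (0.0557), miR-125b-2-3p (0.0643) and miR-125a-3p (0.0663 in FFSS against P3, 0.0517 in P9 against FFSS). Deviations of same-numbered libraries from their group means correlated at -0.50 to 0.13. With 3 libraries a group, these values cannot decide whether replicate numbers pair the libraries. Ratios of arms called in P9 against FFSS numbered 0 to 1 when a library was left out. The family total was -0.43 for P9 against P3 with TMM scaling, and -0.23 without the 7 most abundant rows outside the family. Without those rows it was -0.075 for P9 against FFSS. For FFSS against P3 it turned to 0.02 without FFSS replicate 3. Upper-quartile factors shifted the median of all rows in P9 against FFSS by -0.11. The cause of these changes was not tested. Counting error was at most 2.32% of a member's value, but 3p arms with few reads, such as let-7i-3p at 4.21 CPM in P9, were read less precisely. Every FFSS library had fewer reads than every P9 and every P3 library, and the part of depth in the results was not tested.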
